A study of Mus musculus with 12 samples.

Results

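Keratins are the intermediate filament proteins of epithelial cells. Each filament is built from pairs of 1 acidic type I and 1 basic type II keratin, and the pair a cell makes is a long used marker of its place in an epithelium: Krt8 with Krt18 or Krt19 in simple and luminal cells, Krt5 with Krt14 in basal cells, Krt4 with Krt13 in suprabasal cells of stratified mucosa, and Krt16 and Krt17 in stressed or wounded epithelium. The type I genes lie in a cluster on mouse chromosome 11 and the type II genes in a cluster on chromosome 15. The genes described here are the rows of the count table named Krt followed by digits alone that reached 10 counts in 2 or more of 12 libraries. There were 20 of them among 50 such rows and 55216 rows in all: 10 type I genes (Krt10, Krt13, Krt14, Krt15, Krt16, Krt17, Krt19, Krt32, Krt36 and Krt42) and 10 type II genes (Krt4, Krt7, Krt8, Krt76, Krt78, Krt79, Krt80, Krt81, Krt87 and Krt88). All 20 passed the filter on low counts. Of these, 15 would have met the rule without any Oxali-treated library, while Krt16, Krt17, Krt81, Krt87 and Krt88 met it through Oxali-treated libraries only, so a rise of those 5 is partly fixed by the way they were chosen. Another 21 keratin rows had some counts but stayed below the rule, and 9 had none.

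The RNA came from Myc-CaP, a single established line grown from a prostate tumour of a male FVB/NJ mouse carrying a MYC transgene under a probasin promoter. Cells were left alone (Ctrl) or exposed for 48 h to oxaliplatin at 2 µM (Oxali), a platinum compound that crosslinks DNA, or to interferon γ (IFNγ), a T cell and NK cell cytokine, at 200 pg/mL (IFN200) or 2000 pg/mL (IFN2000). Further cells received Oxali together with either amount (Combo200 and Combo2000). Each of the 6 groups held 2 libraries, and nothing states that they were separate cultures, so the spread between them may be technical. Groups follow the sample titles. The agent field contradicts the titles for the 6 single-treatment libraries: it names Oxali for IFN200, IFNγ 200 pg for IFN2000 and IFNγ 2000 pg for Oxali. Krt16 was at 5.57 and 5.92 CPM in the libraries titled Oxali and at 0.0868 to 0.268 CPM in those titled for IFNγ. Since Krt16 met the rule through libraries titled for Oxali only, these values are not an independent check of the titles.

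Totals per library lay between 18749975 and 25931516 counts. On that depth 3 counts, taken as the 95% upper limit for a count of 0, correspond to 0.111 to 0.167 CPM (each count relative to its library's total, adjusted by the TMM method of edgeR). These limits cover counting error only. The 2 IFN2000 libraries stood apart in a trend with transcript length. The Spearman correlation of a gene's log ratio (library over mean of the 2 Ctrl libraries) with its length, across 13043 genes, was -0.347 and -0.187. It was 0.042 to 0.148 in the other treated libraries. The Ctrl libraries, at 0.016 and -0.016, are themselves the reference. A list of 9 leukocyte markers summed to 12.03 CPM in IFN2000 replicate 2, where Gzmb and Ptprc were at 175 and 64 counts, and to 1.12 CPM in IFN2000 replicate 3, with 0.530 to 1.78 CPM in the other groups; 2 of the 9 were at 0 in both IFN2000 libraries and 7 in both Ctrl libraries. A list of 7 heart muscle genes summed to 9.16 CPM in IFN200 replicate 1 and 1.19 CPM in the other IFN200 library, and to 3.54 to 6.27 CPM in the Oxali-treated groups against 0.835 and 1.27 CPM in Ctrl. In the Oxali-treated libraries most of that sum was Tnnt2, at 2.93 to 5.76 CPM, with Actc1 at most 0.0872 and Myh7 at most 0.716 CPM. In IFN200 replicate 1, Actc1, Myh7 and Tnnt2 were at 2.74, 2.52 and 2.04 CPM. The part of the leukocyte or heart muscle transcripts in the values below was not tested.

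The labelled origin was checked against markers. Epcam, a surface glycoprotein of epithelium, was at 0 in every library and the epithelial cadherin Cdh1 at 0 to 6 counts. Krt18, the usual type I partner of Krt8, had 0 to 5 counts per library (27 in all) and so is not among the 20 genes; how reads shared with its pseudogenes were counted is not given in the sources used here. The basal keratin Krt5 had 0 to 2 counts. Krt8 had 353 to 628 counts and Krt79 23 to 163. Genes of cornified skin (Lor, Ivl, Flg, Sprr1a and Krtdap) summed to at most 0.0556 CPM in any library.

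Of the 20 genes, 11 had an entry among RefSeq promoters (GRCm38.p6; 12 entries, since Krt13 has 2 starts). The 250 bases before the start are shown, 5′ to 3′ on the strand of the gene, for the neighbours Krt76, Krt79, Krt78 and Krt8 on chromosome 15, of which the first 3 fell with Oxali and the last rose slightly, and for Krt13, a type I gene of chromosome 11 that also fell. Capitals mark letters that match a searched motif. The Krt8 entry starts 140 bases inside the annotated gene, and the other 4 at the annotated starts.
Krt76, minus strand, chr15:101892921-101893170: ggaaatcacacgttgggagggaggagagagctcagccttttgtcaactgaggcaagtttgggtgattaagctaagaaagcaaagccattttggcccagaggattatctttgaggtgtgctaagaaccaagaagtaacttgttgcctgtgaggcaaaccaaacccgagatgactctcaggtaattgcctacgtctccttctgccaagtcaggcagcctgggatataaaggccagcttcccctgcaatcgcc
Krt79, minus strand, chr15:101940325-101940574: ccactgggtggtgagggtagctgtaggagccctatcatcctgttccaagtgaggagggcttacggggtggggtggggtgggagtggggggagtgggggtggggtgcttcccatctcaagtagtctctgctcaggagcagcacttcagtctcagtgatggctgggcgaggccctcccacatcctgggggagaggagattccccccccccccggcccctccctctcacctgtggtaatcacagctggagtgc
Krt78, minus strand, chr15:101954288-101954537: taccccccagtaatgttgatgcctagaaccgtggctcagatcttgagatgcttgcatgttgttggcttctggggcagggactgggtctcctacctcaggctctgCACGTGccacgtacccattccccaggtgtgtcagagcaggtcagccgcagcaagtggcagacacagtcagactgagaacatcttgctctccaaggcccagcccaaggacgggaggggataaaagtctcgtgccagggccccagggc
Krt8, minus strand, chr15:102004343-102004592: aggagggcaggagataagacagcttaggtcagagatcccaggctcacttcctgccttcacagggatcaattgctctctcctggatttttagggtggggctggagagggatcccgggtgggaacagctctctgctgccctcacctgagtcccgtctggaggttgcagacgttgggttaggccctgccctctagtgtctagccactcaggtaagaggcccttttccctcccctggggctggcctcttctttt
Krt13, minus strand, chr11:100121567-100121816: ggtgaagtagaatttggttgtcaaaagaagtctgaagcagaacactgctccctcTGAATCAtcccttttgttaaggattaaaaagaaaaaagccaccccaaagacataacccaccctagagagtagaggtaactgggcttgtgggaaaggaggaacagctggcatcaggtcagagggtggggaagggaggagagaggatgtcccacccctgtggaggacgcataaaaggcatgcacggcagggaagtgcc

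The motifs, 6 in all, were searched on both strands of the 300 bases from 250 before to 50 after each start, and matches are descriptions only. The AP-1 letters TGANTCA, held by 7.81% of 32851 promoters, occurred in both Krt13 entries, at -196 in the one shown and at -183 and -34 in the other, whose start lies 989 bases inside the gene. An E-box, CACGTG (7.15% of promoters), stood at -146 in Krt78, the GAS letters TTCNNNGAA (8.3%) at -18 in Krt42, and a κB-type site (1.63%) at -107 in Krt14, whose entry starts 1518 bases inside the gene. Krt7 held 4 GC-boxes, CCGCCC or its complement (35.66%), in an entry 1360 bases inside the gene. The interferon-stimulated response element (3.44%) matched in none of the 12 entries, and Krt8, Krt10, Krt32, Krt36, Krt76 and Krt79 matched no motif.

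In untreated cells the order of keratin levels was led by genes of stratified and simple epithelia. On the RPKM scale (CPM per kilobase of exon, a level that can be compared between genes), Krt4 stood at 292 ± 12.8 (SD, n = 2) and Krt19, the smallest type I keratin and a partner of Krt8 in simple epithelium, at 77.4 ± 1.22. Krt78 followed with 18.1 ± 0.124, Krt80 with 11.8 ± 0.594, Krt7 with 10.6 ± 0.0935 and Krt8 with 10.2 ± 0.210. Then came Krt15 (6.51 ± 0.238), Krt36 (5.18 ± 0.354), Krt76 (3.36 ± 0.492), Krt13 (2.85 ± 0.533), Krt32 (1.84 ± 0.187), Krt14 (1.60 ± 0.342), Krt79 (1.08 ± 0.182) and Krt10 (0.684 ± 0.186). The remaining 6 lay at or below 0.230. The 2 Ctrl libraries overlapped between the neighbours Krt76 and Krt13, Krt32 and Krt14, Krt42 and Krt16, and Krt88 and Krt87. With the longest transcript as the length, Krt80 (19.3) and Krt7 (18.3) moved above Krt78 (18.1), and Krt79 (2.09) above Krt32 and Krt14. Krt4 was the most abundant keratin transcript of these cells by either length.

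Oxali alone was compared with Ctrl to see how the drug moves the keratin repertoire. Keratins moved in both directions: 5 of 6 keratins of suprabasal and stratified epithelium fell, Krt19 and the hair-type keratins Krt32 and Krt36 fell less, and the basal Krt14 and the stress keratins Krt16 and Krt17 rose. Of the 20 genes, 8 were higher, 8 lower and 4 not called at an adjusted p under 0.05 (edgeR), where 34.8% of the 13177 genes tested were higher and 32.8% lower. Among the 15 genes that met the rule without Oxali-treated libraries, 4 were higher, 8 lower and 3 not called, with a median log2 fold change of -0.44 against 0.02 over all genes tested. In bulk RNA, a different share of cells that make a keratin and a different amount of RNA per cell cannot be told apart. A list of 7 fibroblast markers, 4 of them at 0 in both groups, summed to 27.9 and 29.5 CPM in Ctrl and 37.4 and 40.5 CPM in Oxali, and their part in these results was not tested.

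Krt4, a type II keratin of the suprabasal layers of oesophagus and other mucosae, had 604 and 643 CPM in Ctrl and 194 and 197 CPM in Oxali. The groups were far apart, and the log2 fold change was -1.67 ± 0.04 (SE), or 3.19-fold lower, with an adjusted p of 4.98e-17 (edgeR). Krt78, a type II keratin expressed in stratified epithelium, had 62.5 and 61.9 CPM in Ctrl and 17.2 and 17.1 CPM in Oxali. Both Oxali libraries were lower by the same measure, 3.63-fold, with a log2 fold change of -1.86 ± 0.08 and an adjusted p of 8.81e-14. Krt76, known from the hard palate and other oral epithelium, had 6.95 and 8.56 CPM in Ctrl and 1.66 and 1.77 CPM in Oxali. It showed the deepest fall of the 20 genes in this comparison, -2.18 ± 0.17 on the log2 scale or 4.54-fold, with an adjusted p of 5.87e-10. Krt79, a type II keratin of the hair follicle funnel and sebaceous duct, had 4.51 and 5.73 CPM in Ctrl and 1.80 and 2.00 CPM in Oxali, a fall of 2.7-fold (log2 fold change -1.43 ± 0.18, adjusted p = 4.94e-07). Krt13, the type I partner of Krt4, had 4.51 and 5.88 CPM in Ctrl and 2.07 and 1.67 CPM in Oxali, a fall of 2.78-fold (log2 fold change -1.47 ± 0.20, adjusted p = 1.45e-06). Krt10, the type I keratin of cornifying epidermis, was the only one of the 6 not called: its 1.17 and 1.72 CPM in Ctrl overlapped the 0.737 and 1.53 CPM in Oxali (log2 fold change -0.37 ± 0.32, adjusted p = 0.316). Without Oxali replicate 2, its log2 fold change was -0.98 with an adjusted p of 0.0372, and without Oxali replicate 1 it was 0.07 (0.875). The other 5 kept their call and direction in each of 12 alternatives, which change the scaling, the test, the filter, the model or the libraries.

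**Figure D1:**
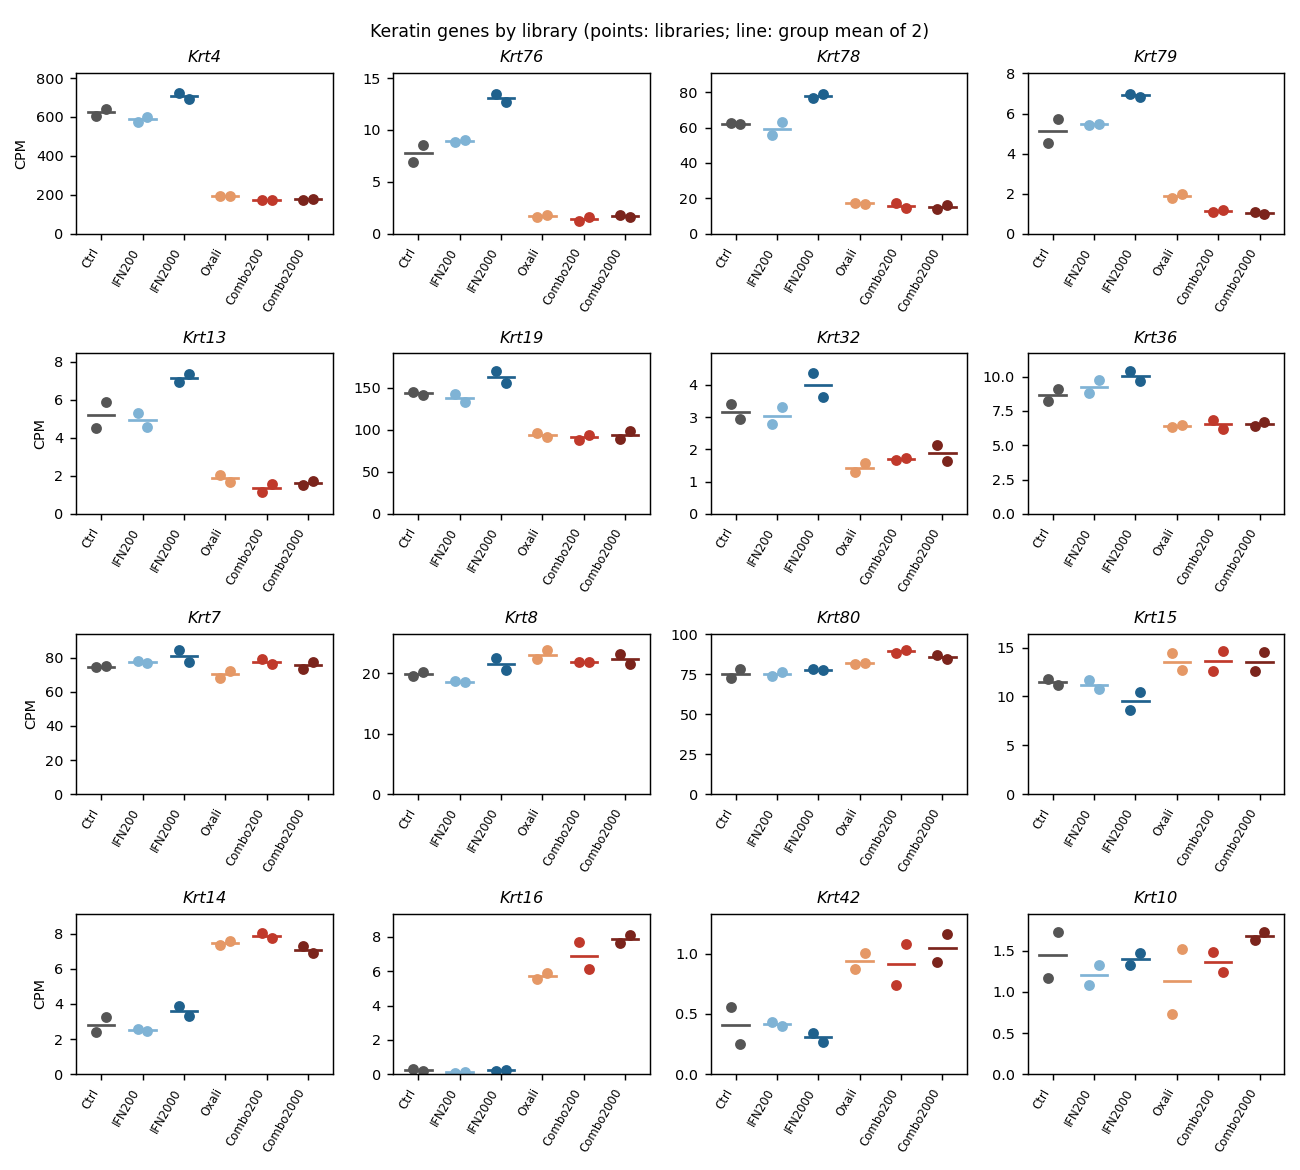
CPM (y axis, linear from 0) of 16 keratin genes in the 6 groups (x axis); points are the 2 libraries of a group and the line their mean. Krt4, Krt76, Krt78, Krt79, Krt13 and Krt19 are lower in all 6 Oxali-treated libraries than in the other 6, and Krt14, Krt16 and Krt42 higher, while Krt7 and Krt10 overlap.

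Krt76, Krt4, Krt79 and Krt78 are consecutive protein-coding genes on chromosome 15 (GRCm38, 101884351 to 101954287, 69.9 kb), with no other protein-coding gene between them, and all 4 fell. The next gene, Krt8, starts 23.7 kb from Krt18, and was slightly higher in Oxali; Krt18 itself was near 0. At the other end of the type II cluster, Krt80, Krt87, Krt88 and Krt81 had positive log2 fold changes, called in Krt80, Krt88 and Krt81, and Krt7 a value of -0.09. On chromosome 11, Krt32, Krt36, Krt13 and Krt19 fell, with Krt15 (log2 fold change 0.24, not called) between Krt13 and Krt19. The last 4 keratin genes of that cluster, Krt14, Krt16, Krt17 and Krt42, followed each other and all rose. The direction changed between blocks of neighbouring genes, which is a description of gene order and was not tested. No 50-base window of Krt4, Krt78 or Krt79 occurs in another gene, and 2.74% of those of Krt76 do.

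**Figure D2:**
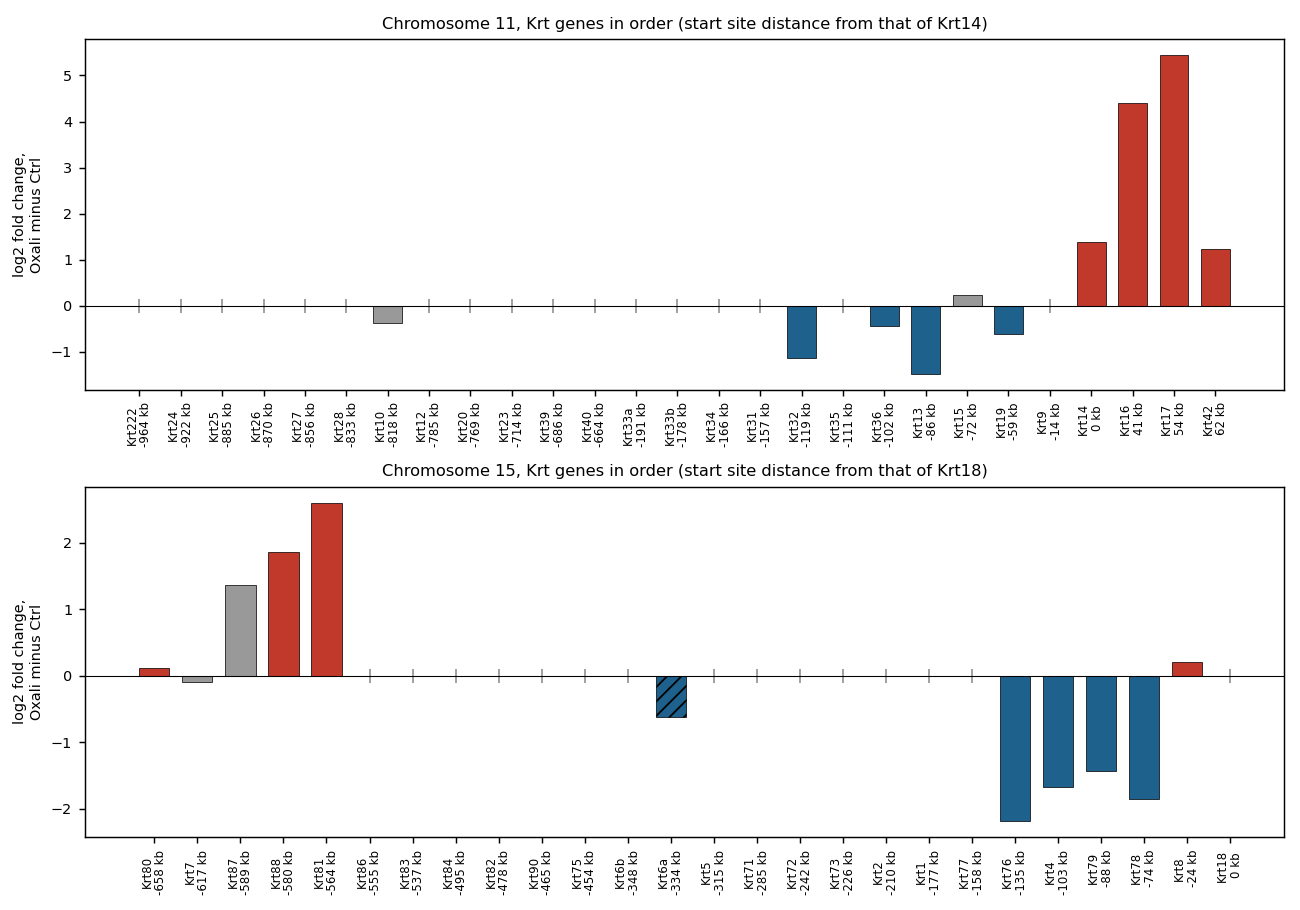
Log2 fold change in Oxali against Ctrl (y axis) for the protein-coding Krt genes of chromosome 11 (top) and chromosome 15 (bottom) in their order along the chromosome, with the distance of each start from that of Krt14 or Krt18 in kb; red bars are called higher, blue bars called lower, grey bars not called, ticks not tested and the hatched bar is Krt6a, which the naming rule leaves out. Krt76, Krt4, Krt79 and Krt78 fall side by side, by -2.18 to -1.43, and Krt14, Krt16, Krt17 and Krt42 rise side by side.

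Of the keratins of simple epithelium, Krt19 fell while Krt7 and Krt8 moved little, as did the epithelial keratin Krt80. Krt19 had 145 and 142 CPM in Ctrl and 96.3 and 92.1 CPM in Oxali. Both Oxali libraries were lower, by 1.52-fold (log2 fold change -0.61 ± 0.06, adjusted p = 1.01e-08), and the call held in all 12 alternatives. Krt7, a type II keratin of glandular ducts, had 74.3 and 75.2 CPM in Ctrl and 68.4 and 72.0 CPM in Oxali (log2 fold change -0.09 ± 0.05, adjusted p = 0.116), and was called lower with a correction for transcript length and GC content (-0.13, adjusted p = 0.0207; 0.0207 to 0.534 over the alternatives). Krt8 had 19.6 and 20.2 CPM in Ctrl and 22.3 and 23.9 CPM in Oxali, a log2 fold change of 0.21 ± 0.07 (adjusted p = 0.0155). That call ended in 5 of 12 alternatives, among them DESeq2 (adjusted p = 0.0789), the length and GC correction (0.126) and the fits without Ctrl replicate 1 (0.0953) or Oxali replicate 2 (0.133), over a range of 0.00402 to 0.133. Of its sequence, 26.93% of the 50-base windows also occur in the pseudogene Krt8-ps, which had at most 2 counts. Krt80, an epithelial type II keratin of differentiating cells, had 72.8 and 78.2 CPM in Ctrl and 81.5 and 82.4 CPM in Oxali (log2 fold change 0.12 ± 0.04, adjusted p = 0.0271), and the call ended in 7 alternatives, among them DESeq2 (0.0986), the length and GC correction (0.170) and the fit without Ctrl replicate 1 (0.330), and 0.00274 was the lowest adjusted p. Krt80 shares 263 exonic bases with the antisense gene Gm35853, which had up to 433 counts, and whether the counting used strand is not given.

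Among basal and stress keratins, Krt14, Krt16 and Krt17 rose, Krt15 was not called, and Krt6a, which the naming rule leaves out, fell. Krt14, the type I keratin of basal cells, had 2.39 and 3.24 CPM in Ctrl and 7.37 and 7.59 CPM in Oxali, 2.63-fold higher (log2 fold change 1.40 ± 0.15, adjusted p = 7.71e-08). Krt15, another basal type I keratin, had 11.8 and 11.2 CPM in Ctrl and 14.5 and 12.7 CPM in Oxali; both Oxali libraries were above both Ctrl libraries, but it was not called (log2 fold change 0.24 ± 0.11, adjusted p = 0.0694; 0.0239 to 0.391 over 12 alternatives, 5 of which called it). Krt16, induced in wounded and hyperproliferative epithelium, rose from 6 and 4 counts in the untreated libraries to 121 and 124. The gap was the widest of the keratins with counts in Ctrl: 0.334 and 0.203 CPM against 5.57 and 5.92 CPM, a fitted 21.2-fold (log2 fold change 4.41 ± 0.28, adjusted p = 3.64e-11), in a gene that met the rule through Oxali-treated libraries. Of the 50-base windows of Krt16, 25.2% also occur in the pseudogene Gm11597, which had at most 1 count, and 12.4% in Krt14, so part of either count may belong to the other. Krt17, the type I keratin often induced together with Krt16, was at 0 in both Ctrl libraries and at 4 and 6 counts in Oxali. Its mean CPM in Oxali was 1.48 times that of 3 counts per Ctrl library, a ratio that leaves out counting error in Oxali. It was called higher (edgeR, adjusted p = 0.00672), a call that ended without Ctrl replicate 2.

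Hair and root sheath keratins went both ways. Krt32 had 3.39 and 2.94 CPM in Ctrl and 1.29 and 1.58 CPM in Oxali, 2.20-fold lower (log2 fold change -1.14 ± 0.22, adjusted p = 0.000163), and Krt36 had 8.23 and 9.07 CPM in Ctrl and 6.36 and 6.44 CPM in Oxali, 1.35-fold lower (-0.44 ± 0.11, adjusted p = 0.00226). Both are type I keratins of hair and nail or tongue papillae, and both kept their call in every alternative. Krt42, a type I keratin of the nail, had 0.556 and 0.253 CPM in Ctrl and 0.875 and 1.00 CPM in Oxali (log2 fold change 1.22 ± 0.41, adjusted p = 0.0125). That call ended without Ctrl replicate 2 (0.75, adjusted p = 0.193), without Oxali replicate 2 (1.12, 0.0781) and in DESeq2 (1.23, 0.0683), with 0.00922 as the lowest of its alternatives. The last 3 genes were at a few counts. Krt81 had 1 and 1 against 7 and 8 counts, a ratio of 6.63 with a 95% counting interval of 1.54 to 59.7 (adjusted p = 0.0238; 0.00896 to 0.123 over the alternatives, 5 of which, DESeq2 and each fit with 1 library left out, ended the call). Krt87 had 2 and 3 against 6 and 9 counts, a ratio of 2.65 (0.916 to 9.32; adjusted p = 0.0631). Krt88 had 2 and 1 against 4 and 9 counts, a ratio of 3.83 (1.05 to 20.9; adjusted p = 0.0481; 0.0298 to 0.371 over the alternatives, 5 of which ended the call, up to the fit without Oxali replicate 2). Of the 50-base windows of Krt81 and Krt87, 43.53% and 36.92% occur in other genes, with 14.66% and 11.8% shared between these 2. Their counts are uncertain for that reason.

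**Figure D3:**
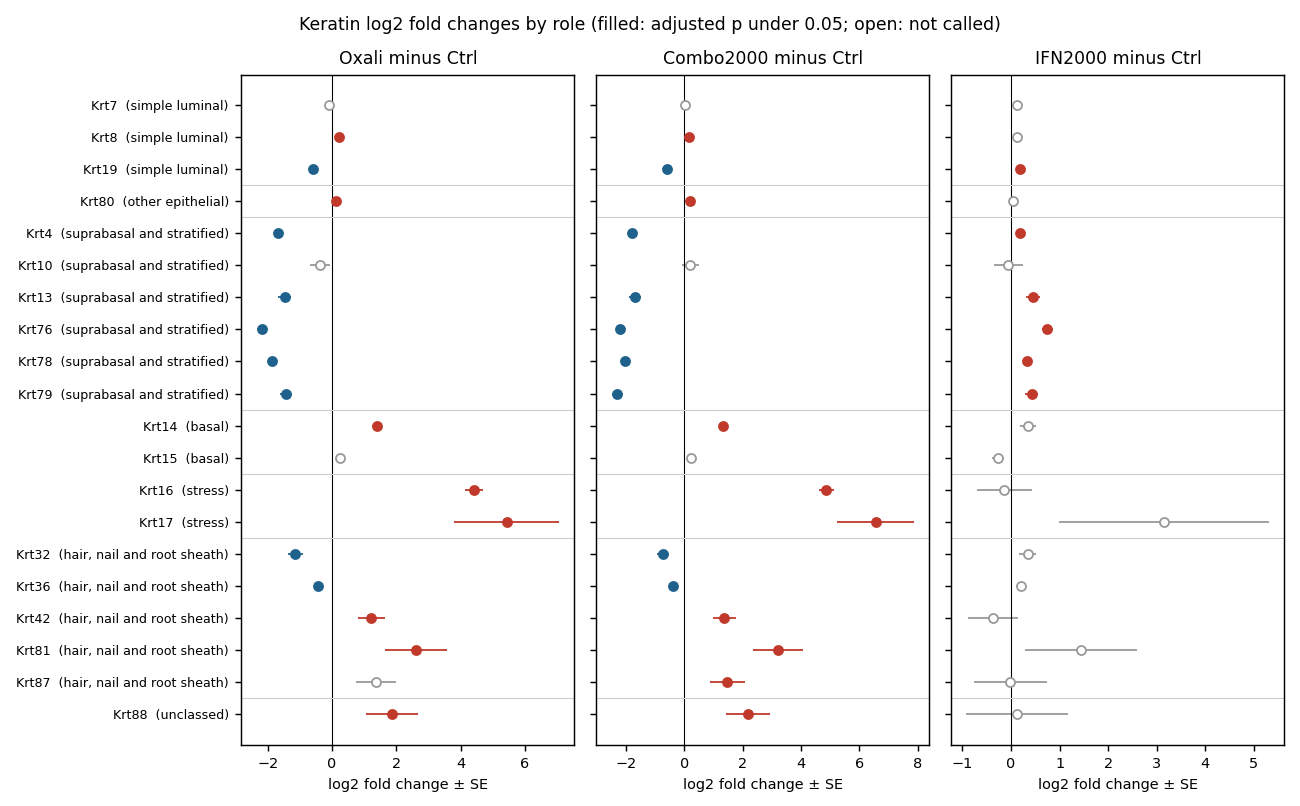
Log2 fold change with its SE (x axes, each panel on its own scale) of the 20 keratin genes (y axis, grouped by the kind of epithelium they are known from) in Oxali, Combo2000 and IFN2000 against Ctrl; red is called higher, blue called lower and open grey not called. The suprabasal and stratified keratins other than Krt10 lie left of 0 in both Oxali-treated groups and right of 0 in IFN2000. The 3 panels share the Ctrl libraries, and the fitted value of Krt17, with 0 counts in Ctrl, depends on edgeR's default prior count.

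The keratin pool shrank and changed its make-up. The RPKM summed over all keratin rows, Krt6a and the rows below the rule included, was 461 and 485 in Ctrl and 225 and 226 in Oxali. Krt4 made up 61.4% and 62.1% of that sum in Ctrl and 40.5% and 40.8% in Oxali. Over the same libraries the share of Krt19 was 16.97% and 15.77%, then 23.1% and 22.0%, and that of Krt7, Krt8 and Krt19, with the few counts of Krt18, was 21.5% and 20.1%, then 32.4% and 31.9%. The share of the basal and stress keratins Krt14, Krt15, Krt16 and Krt17, with the few counts of Krt5, went from 1.79% and 1.71% to 7.13% and 6.86%. The sum of type II levels was 3.74 and 4.02 times that of type I levels in Ctrl and 2.01 and 2.11 times in Oxali. These shares are parts of one sum, mainly set by Krt4, and are given as a description with no test.

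**Figure D4:**
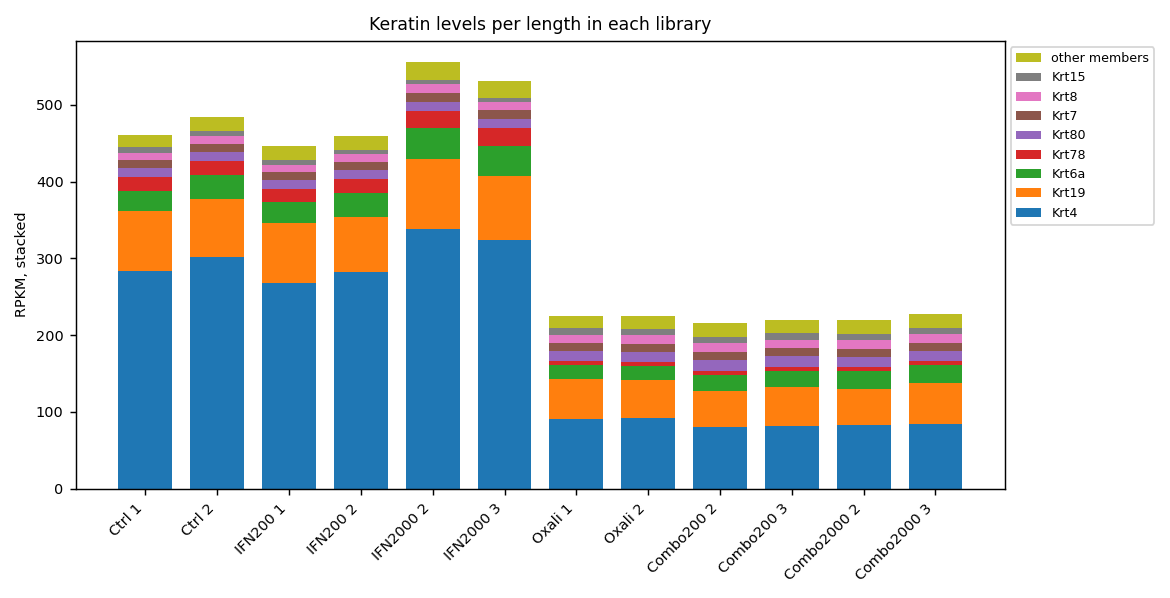
RPKM of the keratin genes (y axis, stacked from 0) in each of the 12 libraries (x axis), by gene, with the other 13 genes summed. The stack, over the 20 genes and Krt6a, is 446 to 556 in the 6 libraries without Oxali and 215 to 228 in the 6 with it, and most of the difference is the Krt4 segment.

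IFNγ alone was compared with Ctrl at both amounts. With 200 pg none of the 20 genes was called in either direction by edgeR, where 0.114% of all genes tested were higher and 0% lower. None was called by DESeq2 or in any other alternative, and 1 had an unadjusted p under 0.05. With 2000 pg, 6 keratins were higher and none lower, against 8.39% higher and 8.47% lower over all genes tested, among them the 5 suprabasal and stratified keratins named as lower in Oxali (both comparisons use the Ctrl libraries). Krt76 had 6.95 and 8.56 CPM in Ctrl and 13.5 and 12.7 CPM in IFN2000, a log2 fold change of 0.75 ± 0.11 (adjusted p = 0.000147). Krt78 had 62.5 and 61.9 CPM in Ctrl and 76.7 and 79.1 CPM in IFN2000 (0.33 ± 0.06, adjusted p = 0.00148). Both genes kept their call in every alternative. Krt4 had 722 and 691 CPM in IFN2000 against 604 and 643 CPM in Ctrl (0.18 ± 0.04, adjusted p = 0.00402), a call that ended without Ctrl replicate 1 (0.14, adjusted p = 0.0918; lowest 0.000101).

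Krt13 had 6.94 and 7.37 CPM in IFN2000 against 4.51 and 5.88 CPM in Ctrl, with a log2 fold change of 0.45 ± 0.15 (adjusted p = 0.042), and Krt79 had 6.98 and 6.83 CPM against 4.51 and 5.73 CPM, with 0.43 ± 0.14 (adjusted p = 0.0359). Both calls ended with the length and GC correction (Krt13 0.41, adjusted p = 0.0615; Krt79 0.40, adjusted p = 0.0521), in DESeq2 (0.163 and 0.186) and without Ctrl replicate 1 (0.345 and 0.298) or IFN2000 replicate 2 (0.096 and 0.151), and the lowest adjusted p of any alternative was 0.013 for Krt13 and 0.0235 for Krt79. Krt19 had 170 and 156 CPM in IFN2000 against 145 and 142 CPM in Ctrl (0.18 ± 0.05, adjusted p = 0.0271), a call that ended without IFN2000 replicate 2 (0.12, adjusted p = 0.244), Ctrl replicate 1 (0.117) or Ctrl replicate 2 (0.144), with 0.00217 as the lowest adjusted p. Without IFN2000 replicate 2, the library with the leukocyte transcripts and the stronger length trend, 3 of the 6 keratins were called; without IFN2000 replicate 3, 7 were, and without Ctrl replicate 1, 2 were. Krt14, Krt15, Krt16 and Krt17 were not called in IFN2000 (log2 fold changes 0.35 ± 0.17, -0.27 ± 0.12, -0.14 ± 0.57 and, with 0 against 0 and 2 counts, no value). Between the amounts, IFN2000 against IFN200, 7 keratins were higher and none lower, where 11.3% of all genes tested were higher and 11.0% lower (4 keratins in DESeq2, 3 without IFN200 replicate 2 and 4 without IFN2000 replicate 2): Krt76 (log2 fold change 0.55), Krt13 (0.54), Krt14 (0.52), Krt78 (0.40), Krt4 (0.27), Krt19 (0.24) and Krt8 (0.22). Of these, Krt76, Krt78 and Krt4 kept their call in all 12 alternatives. The call of Krt8 ended in 9 (adjusted p up to 0.335) and that of Krt14 in 8 (up to 0.276). That of Krt13 ended in 4 (up to 0.158) and that of Krt19 in 2 (up to 0.0607).

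The combinations were compared with Ctrl and with each agent alone. Combo200 had 8 keratins higher and 8 lower than Ctrl, where 35.6% and 33.1% of all genes tested were, and Combo2000 had 9 higher and 8 lower, where 35.7% and 33.5% were. The 8 that were lower in either were the same as in Oxali against Ctrl: Krt4, Krt13, Krt19, Krt32, Krt36, Krt76, Krt78 and Krt79. Krt79 had 1.09 and 1.20 CPM in Combo200 and 1.07 and 0.991 CPM in Combo2000, 4.46-fold and 4.94-fold below Ctrl. Krt16 had 7.68 and 6.15 CPM in Combo200 and 7.67 and 8.10 CPM in Combo2000. Krt14 had 8.03 and 7.73 CPM and 7.30 and 6.90 CPM in the same groups. Krt17 reached 12 and 8 counts in Combo200 and 13 and 13 in Combo2000. Its mean CPM there was 2.61 and 3.27 times that of 3 counts per Ctrl library, again without counting error in the treated libraries. The pool of keratin RPKM was 216 and 220 in Combo200 and 220 and 229 in Combo2000, with 37.0% to 37.5% from Krt4. Against IFNγ alone, the drug gave 10 keratins higher and 8 lower at 200 pg (36.5% and 33.5% of all genes tested). At 2000 pg it gave 9 higher and 8 lower (38.5% and 33.8%). Krt76 was 6.04-fold lower in Combo200 than in IFN200 and 7.70-fold lower in Combo2000 than in IFN2000. All these counts of higher keratins draw on a set that includes Krt16, Krt17, Krt81, Krt87 and Krt88. Those 5 met the rule through Oxali-treated libraries only, so the higher counts are partly fixed by that choice.

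Adding IFNγ to the drug moved single keratins. Against Oxali, Combo200 had 0 keratins higher and 1 lower (1.58% and 0.250% of all genes tested): Krt4, with 171 and 174 CPM against 194 and 197 CPM, a log2 fold change of -0.18 ± 0.04 (adjusted p = 0.0232). That call ended in 4 alternatives, each leaving out 1 of the 4 libraries compared, with adjusted p from 0.112 to 0.267, and 0.00138 was the lowest of the others. Combo2000 against Oxali had 0 higher and 1 lower (3.37% and 0.987%): Krt79, with 1.07 and 0.991 CPM against 1.80 and 2.00 CPM, 1.83-fold lower (log2 fold change -0.87 ± 0.23, adjusted p = 0.0357). That call ended in 7 of 12 alternatives, among them DESeq2 (0.137) and each fit without 1 of the 4 libraries compared (0.0979 to 0.222), and 0.0227 was the lowest adjusted p. Krt16 was 1.37-fold higher in Combo2000 than in Oxali at an adjusted p of 0.0529 and so not called. It was called in 4 of 12 alternatives: without a filter (0.0101), at a mean of at least 50 counts (0.0445), with the length and GC correction (0.0479) and in the fit of only these groups (0.0399). Between the combinations none of the 20 genes was called by edgeR or in any alternative (1.21% of all genes tested were higher in Combo2000 and 0.167% lower), with 0 at an unadjusted p under 0.05.

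Whether the IFNγ change itself differs with the drug was tested as (Combo minus Oxali) minus (IFNγ minus Ctrl). At 200 pg no keratin was called by edgeR or in any alternative, 3 had an unadjusted p under 0.05, and 0.562% of all genes tested had a positive and 0.137% a negative difference. At 2000 pg, 0 keratins were positive and 3 negative, against 2.12% and 0.600% of all genes tested. Krt4 changed by 0.18 with IFNγ alone and by -0.13 on top of Oxali, a difference of -0.31 ± 0.06 (adjusted p = 0.0034), which kept its call in all 16 alternatives. Krt79 changed by 0.43 and -0.87, a difference of -1.30 ± 0.27 (adjusted p = 0.0113), which ended without Oxali replicate 2 (-1.22, adjusted p = 0.0697; lowest 0.000623). Krt78 changed by 0.33 and -0.16, a difference of -0.49 ± 0.11 (adjusted p = 0.024), which ended without either Ctrl library (0.115 and 0.0886), without either Oxali library (0.125 and 0.109) and without Combo2000 replicate 2 (0.212), with 0.000162 as the lowest adjusted p. The 3 genes are neighbours on chromosome 15. Krt76, the fourth of that block, had a difference of -0.76 ± 0.25 and was not called (adjusted p = 0.11).

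Rows next to the rule were read as well. Krt6a, a type II stress keratin left out because its symbol ends in a letter, had 945 to 2232 counts per library and, at 26.4 and 30.9 RPKM in Ctrl, lay between Krt19 and Krt78. It was lower in Oxali than in Ctrl (log2 fold change -0.62 ± 0.06, adjusted p = 4.33e-08), opposite to Krt16, and higher in IFN2000 (0.45 ± 0.06, adjusted p = 3.41e-05) and in Combo2000 than in Oxali (0.31 ± 0.06, adjusted p = 0.00402). Since 39.86% of its 50-base windows occur in Krt6b, which had at most 3 counts, its level is uncertain. Just inside the rule were Krt17 with at most 13 counts in a library, Krt88 with 13, Krt81 with 16 and Krt87 with 17, and just outside were Krt23 with at most 7, Krt31 with 6, and Krt18, Krt20 and Krt35 with 5.

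Genes that anchor, bind or accompany keratins were read from lists chosen with earlier results of these data known, and are given as counts beside 34.8% higher and 32.8% lower over all genes tested in Oxali. Of 12 genes tested from desmosomes and plakins, the anchors of keratin filaments at the cell surface, 8 rose and none fell. Evpl, envoplakin, rose by 0.65 ± 0.07 on the log2 scale (adjusted p = 1.18e-07) and Eppk1, epiplakin, by 0.72 ± 0.23 (0.00875). The call of Eppk1 ended in DESeq2 (0.0684), without Ctrl replicate 2 (0.43, adjusted p = 0.195) and without Oxali replicate 2 (0.0854). Dsp, desmoplakin, had at most 6 counts in a library. The desmosomal cadherins Dsg1a, Dsg2, Dsg3, Dsc1, Dsc2 and Dsc3 had at most 2, and like Dsp were not tested. Of 8 other intermediate filament genes 4 rose and 3 fell, with Vim, vimentin of mesenchymal cells, 1.76-fold higher (0.81 ± 0.04, adjusted p = 1.17e-12), Synm, synemin, at 0.43 ± 0.06, and the nuclear lamins Lmnb1 (-0.94 ± 0.04) and Lmnb2 (-0.38 ± 0.04) lower. Of 12 keratin binding and turnover genes 5 rose and 5 fell. Among those with a mean log2 CPM of at least 1, the largest rises were those of Sqstm1, an autophagy receptor (0.97 ± 0.04), and Hspb1, a small heat shock protein (0.51 ± 0.05), and the largest falls those of Ywhae, a 14-3-3 protein (-0.66 ± 0.04), and Casp6, a caspase that cleaves keratins (-0.25 ± 0.10, adjusted p = 0.0274). The call of Casp6 ended in DESeq2 (0.117), with upper-quartile scaling (0.0789), and without Ctrl replicate 2 (0.114) or Oxali replicate 2 (0.173). Ogt (-0.25) and Dnajb6 (-0.24), named after their values were seen, fell by nearly as much.

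Genes of the compartments that keratins mark moved in Oxali as follows. Of 9 prostate basal genes tested 7 rose and 1 fell: Lamb3, a chain of laminin-332, rose 15.4-fold (log2 fold change 3.95 ± 0.05, adjusted p = 1.1e-20), and its receptor subunit Itgb4 5.27-fold (2.40 ± 0.18). The paired subunit Itga6 fell by 0.49 ± 0.04, and Trp63, the master factor of basal cells, had 3 to 12 counts per library. Of 4 luminal genes 2 fell, the pioneer factor Foxa1 (-1.06 ± 0.04) and Hoxb13 (-0.42 ± 0.07), and none rose. Of 6 mesenchymal genes 5 rose, with Fn1, fibronectin, at 0.97 ± 0.08 and Zeb2 at 0.78 ± 0.06. Of 10 epithelial genes 3 rose (Tjp3 0.68 ± 0.19 and Spint1 0.63 ± 0.21 the most) and 2 fell (Cldn3 -0.54 ± 0.06 and Esrp2 -0.46 ± 0.05), with 3 of the 5 called in DESeq2. The calls of Tjp3 and Spint1 ended without Oxali replicate 1 (adjusted p = 0.101 and 0.114). That of Tjp3 ended also without Ctrl replicate 1 (0.0511), and that of Spint1 also without Ctrl replicate 2 (0.0935) and in DESeq2 (0.0847). Of 23 factors known to act on keratin promoters 14 rose and 2 fell. Esr1, the estrogen receptor, rose 2.95-fold and the AP-1 subunit Junb 2.54-fold, while Sp1 fell by 0.69 and Nfe2l2, NRF2, by 0.59 on the log2 scale. Thus Krt14, Krt16 and Krt17 rose in libraries in which most of the listed basal genes tested were also higher, and Krt4, Krt13 and Krt19 fell in libraries in which Foxa1 was lower; whether any of these bears on the other was not tested.

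In IFN2000 the same lists gave fewer calls, beside 8.39% higher and 8.47% lower over all genes tested. Of the 12 desmosome and plakin genes 5 fell and none rose, Dst (-0.48 ± 0.11) and Macf1 (-0.35 ± 0.09) the most; with the length and GC correction 3 of the list were called, in DESeq2 2, and without IFN2000 replicate 2 or Ctrl replicate 1 only 1. Among the regulators 7 rose and 4 fell, with Jund at 0.35 ± 0.11, Esr1 at -0.42 ± 0.08 and Klf5 at -0.20 ± 0.06. Synm fell (-0.45 ± 0.07), and none of the 10 epithelial genes was called by edgeR or DESeq2, with 2 at an unadjusted p under 0.05 (1 was called with upper-quartile scaling and 2 without IFN2000 replicate 3). Of the mesenchymal genes Twist2 rose (0.34 ± 0.10) and Fn1 (-0.38 ± 0.08) and Zeb2 (-0.18 ± 0.06) fell; the call of Zeb2 ended with the length and GC correction (-0.04, adjusted p = 0.708). Cd44 rose (0.12 ± 0.04) and Egfr fell (-0.35 ± 0.09; length and GC correction -0.19, adjusted p = 0.113) among the basal genes, and Ywhae (0.14 ± 0.04) and Ywhaz (0.13 ± 0.04) rose and Sqstm1 (-0.17 ± 0.04) fell among the binding genes. Without Ctrl replicate 1, every gene named in this paragraph except Synm lost its call (adjusted p from 0.0524 to 0.536).

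**Figure D5:**
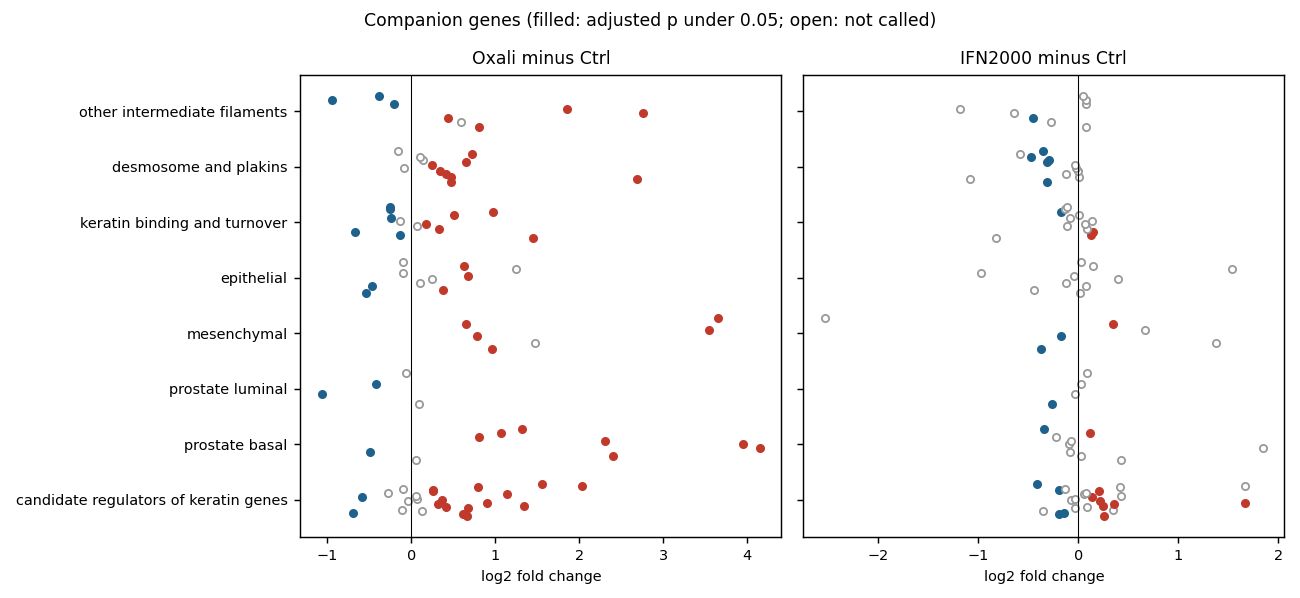
Log2 fold change (x axis) of each gene tested from 8 lists (y axis) in Oxali and IFN2000 against Ctrl; filled red points are called higher, filled blue called lower and open points not called. Prostate basal and mesenchymal genes lie mostly right of 0 in Oxali, and the called desmosome and plakin genes right of 0 in Oxali and left of 0 in IFN2000.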

How the data were processed

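Counts per gene were used as the authors deposited them, in 1 table of 12 libraries. Per the labels, libraries were made with a stranded TruSeq mRNA kit. Per the methods of the study, reads were aligned with STAR 2.7.3a to GRCm38 with GENCODE annotation, and counted with featureCounts; the submitters' processing notes also name RSEM 1.3.0 without a role. The strand setting and the treatment of reads that match several genes are not given in the sources used here.

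Of 55216 rows, 28300 had no count and 13177 passed edgeR's filterByExpr (minimum count 10, minimum total 15). edgeR 4.0.16 (R 4.3.3) fitted 1 quasi-likelihood model of 6 group means over all 12 libraries with TMM scaling, and every log2 fold change, SE and adjusted p comes from it (Benjamini-Hochberg over all genes tested, threshold 0.05; prior count 2; residual df 6). With 2 libraries a group, an exact two-sided permutation test of 1 gene could not go below 0.333, so none was used. Libraries of a group are not stated to be separate cultures, so p-values measure the spread between these libraries, which may be technical. The fit was tested on simulated data.

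RPKM divides CPM by the length of the union of exons in GENCODE vM21 (53559 symbols matched). Limits at 3 counts and counting intervals of ratios (exact, 95%) cover counting error only. Promoter sequences are RefSeq's for GRCm38.p6. Alternatives were upper-quartile scaling, DESeq2 1.42.0, no filter, a mean of at least 50 counts, a replicate block, a length and GC correction, both together, only the groups compared, and leaving out each library. The correction fitted a spline with 5 df each in log2 transcript length and GC content, and entered edgeR as offsets.

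The keratin genes and all gene lists were chosen with earlier results of these data known. Keratins were named with their values where called and at 1 CPM or more in a group, and from each other list up to 2 rises and 2 falls, the largest called ones with a mean log2 CPM of at least 1. Some genes of these lists are not reported here.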

Additional observations from a re-analysis of the deposited data

Results flagged for a closer look

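The 3 keratin genes whose response to IFNγ at 2000 pg differed with Oxali, by the test of that difference, were flagged, and all are neighbours on chromosome 15. For Krt4 the difference between the IFNγ change on top of Oxali and the IFNγ change alone was -0.315 ± 0.06 (log2, SE). For Krt78 it was -0.49 ± 0.11, and for Krt79 -1.30 ± 0.27. Krt79 is the gene with the fewest counts of the 3, at 23 to 42 per Oxali-treated library, against 81 to 163 in the others.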

How the results depend on the processing

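No called keratin result changed direction; some that were not called did, such as Krt10 in Oxali. Of 102 called keratin results, 102 kept their call with upper-quartile scaling, 95 without a filter, 91 with the length and GC correction and 76 in DESeq2, and of those it could fit, all 78 kept theirs at a mean of at least 50 counts. For IFN2000 against Ctrl, the 6 keratins called became 2 to 7 with a library left out (2 without Ctrl replicate 1, 3 without IFN2000 replicate 2). In IFN2000 against IFN200, 7 became 4 in DESeq2 and 3 to 8 with a library left out (3 without IFN200 replicate 2, 4 without IFN2000 replicate 2). In Combo200 against Oxali, 1 became 0 without any one of the 4 libraries. In Combo2000 against Oxali, 1 became 0 in DESeq2 and without any one of the 4 libraries, 2 without a filter or at a mean of at least 50 counts, and 3 with the length and GC correction. The difference of IFNγ responses at 2000 pg, called in 3 keratins, ranged from 1 (without Oxali replicate 2) to 4. The causes of these changes were not tested. Oxali against Ctrl gave 12 to 14 keratins in place of 16 with a library left out, and not always the ones called with all libraries.

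Replicate numbers did not pair the samples: deviations of same-numbered libraries correlated between -0.046 and 0.045 over 13177 genes. With the replicate block, IFN2000 against Ctrl gave 3 keratins, IFN2000 against IFN200 gave 4 and Combo2000 against Oxali 0 (2 with block and length and GC correction together); 87 of the 102 called results kept their call. Genes under about 10 counts per library (Krt17, Krt81, Krt87 and Krt88) are limited by depth.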
